A study of Mus musculus with 12 samples.

Results

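In the liver, 123 genes were lowered by dexamethasone (DEX), a synthetic glucocorticoid, and raised by iron, and in mice given iron before DEX their levels lay near those after iron alone. The set holds transcription factors of the immediate response such as Junb, Id2, Id3 and Klf10, regulators of inflammatory signalling such as Socs3, Relb, Bcl3 and Tnip1, and genes of cell shape, lipid storage and metal transport. The 123 genes were found among 55414 genes counted, of which 12515 were abundant enough for the rule. They were chosen by their values in 9 of 12 livers. A gene qualified when its mean was at least 1 CPM (reads of a gene scaled for library size with edgeR's TMM factors) in NaCl/PBS or FeSO4/PBS mice. The log2 ratio of means to NaCl/PBS, with 0.5 CPM added to each, had to be -0.5 or below for NaCl/DEX and 0.5 or above for FeSO4/PBS. In addition, all 3 NaCl/DEX mice had to lie below, and all 3 FeSO4/PBS mice above, all 3 NaCl/PBS mice. Differences of the 123 genes among these 3 groups were selected on, and are therefore given as a description, without a test. Counts of edgeR calls among these groups are given only for lists of marker and pathway genes, some of which hold genes of the set.

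The livers came from female C57Bl/6J mice, 8 to 12 weeks old, 3 per group. NaCl/PBS mice received 0.9% NaCl and, 6 h later, PBS. NaCl/DEX mice received NaCl and then 10 mg/kg DEX, FeSO4/PBS mice 300 mg/kg FeSO4 and then PBS, and FeSO4/DEX mice FeSO4 and then DEX. Livers were taken 2 h after the second injection, so that all iron values are from 8 h and all DEX values from 2 h after injection. Injections were intraperitoneal, no group carried a transgene or a deletion, and each liver was sequenced as 1 stranded mRNA library. The FeSO4/DEX mice were the group that the rule did not use.

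Glucocorticoids bind the glucocorticoid receptor (GR), a nuclear receptor that induces many genes by binding DNA and dampens others, among them genes driven by NF-κB and AP-1, the transcription factors that switch on cytokines and early response genes. Iron in excess feeds the formation of reactive oxygen species and the peroxidation of lipids, and liver cells answer such damage with stress and early response genes. The genes described here were chosen by lower levels after DEX and higher levels after iron in the same tissue.

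Libraries held between 16335651 and 23827340 counts. The hepatocyte markers were high in all mice, with a summed level of 115000 to 170600 CPM. Of 10 markers of pancreatic acinar cells, 8 were at 0 in all libraries. Markers of neutrophils rose after iron, as the set did. Their NaCl/DEX sums overlapped those of NaCl/PBS mice, and their FeSO4/DEX sums all lay below those of FeSO4/PBS mice. The summed level of 10 neutrophil markers was 6.19 to 15.03 CPM in NaCl/PBS, 4.43 to 6.35 in NaCl/DEX, 41.4 to 48.4 in FeSO4/PBS and 30.0 to 36.5 in FeSO4/DEX mice, and no neutrophil marker was at 0 in all libraries. Of the 7 that were tested, edgeR called 1 lower after DEX, 6 higher after iron and 7 higher in FeSO4/DEX than in NaCl/DEX mice. The shares of all genes tested were 7.15%, 27.2% and 22.4%. Cholangiocyte markers, of which Sox9 belongs to the set, summed to 44.4 to 51.9, 31.0 to 43.7, 64.1 to 81.8 and 56.4 to 70.7 CPM in the same groups. Stellate cell and fibroblast markers summed to 351.9 to 369.5, 335.8 to 396.3, 410.6 to 537.6 and 454.9 to 514.7 CPM. Of 10 tested, 3 were called higher and 2 lower after iron, against 27.2% and 27.3% of all genes. After DEX 1 was lower, against 7.15%, and 4 were higher in FeSO4/DEX than in NaCl/DEX mice, against 22.4%. The part of these cells in the levels of the set was not tested, and fewer cells of a type cannot be told apart from less RNA per cell. Kupffer cell and macrophage markers went the other way after iron, from 551.9 to 636.1 CPM in NaCl/PBS to 321.0 to 375.1 in FeSO4/PBS mice. NaCl/PBS mouse 2 had the highest neutrophil sum of its group (15.03 CPM) and the highest level of its group for 67 of the 123 genes. FeSO4/PBS mouse 1 differed more from the other two mice of its group, with a chi-square per gene of 81.4 and 64.9, than these did from each other (22).

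Across the set the log2 ratio after DEX had a median of -0.81 and ran from -3.28 for Efna1 to -0.50 for Tnip1. After iron the median was 1.24, from 0.51 for Sntb2 to 4.95 for Arid5a. For 92 of the 123 genes the rise after iron was larger in size than the fall after DEX. In 30 genes both ratios were at least 1 in size, and in 5 genes (Socs3, Junb, Arrdc4, Pde4b and Id2) both were at least 2. The set was small beside its parts, since 1362 genes met the DEX part of the rule and 2755 the iron part, 850 genes were lowered by both treatments and 504 raised by both. The opposite pattern, raised by DEX and lowered by iron, was met by 88 genes. All but 1 of the 123 genes are annotated as protein coding (99.2%, against 91.7% of all 13857 genes tested).

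**Figure D1:**
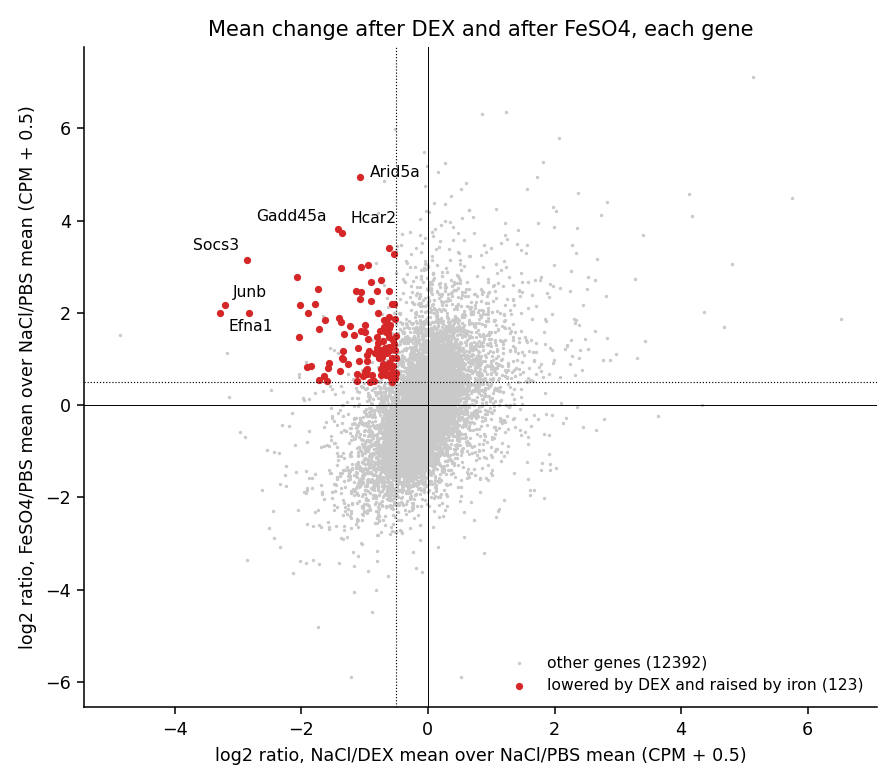
Each point is a gene with a mean of at least 1 CPM in NaCl/PBS or FeSO4/PBS mice. The horizontal axis gives the log2 ratio of the NaCl/DEX mean to the NaCl/PBS mean and the vertical axis that of the FeSO4/PBS mean, both with 0.5 CPM added. The 123 genes in red lie left of -0.5 and above 0.5 (dotted lines), with Arid5a highest at 4.95 and Efna1 furthest left at -3.28.

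At the edges of the rule, the genes just inside the DEX threshold were Tnip1, Irak1bp1 and Mbip with log2 ratios of -0.50, -0.51 and -0.51, and those just outside were Dysf (-0.50), Stk19 (-0.49) and Bmp2k (-0.48). Inside the iron threshold lay Sntb2, Metrnl and Rnf39 (0.51, 0.51 and 0.53), and outside it Hk1 (0.50), Fbxl20 (0.49) and Gramd2b (0.48). Zfr2, Trim6 and Rnf225 had the lowest levels that still passed, with FeSO4/PBS means of 1.15, 2.02 and 2.66 CPM. A further 29 genes failed because the NaCl/DEX mice overlapped the NaCl/PBS mice, 27 because the FeSO4/PBS mice did, and 13 because both did.

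Among the 14 gene lists used here, that of factors of the immediate response held the most genes of the set, 6, beside 5 of NF-κB and cytokine response. Further genes that lead to NF-κB lay outside the lists and are given among the other observations. Values are given in CPM for mice 1, 2 and 3 of each group, and ratios and fold changes on a log2 scale are differences, not levels. Junb had 44.0, 105 and 36.2 CPM in NaCl/PBS, 4.98, 7.30 and 6.55 in NaCl/DEX, 324, 303 and 211 in FeSO4/PBS and 241, 302 and 197 in FeSO4/DEX mice. JunB is a subunit of AP-1. The NaCl/DEX mice lay between 4.98 and 7.30 CPM, and both iron groups stood above all NaCl mice. Id2 had 77.6, 133 and 68.7 CPM in NaCl/PBS, 11.9, 11.6 and 14.6 in NaCl/DEX, 446, 342 and 340.1 in FeSO4/PBS and 294, 377 and 304 in FeSO4/DEX mice. Id3 had 26.7, 43.9 and 24.9 CPM in NaCl/PBS, 8.40, 9.26 and 7.06 in NaCl/DEX, 135, 134 and 117 in FeSO4/PBS and 115, 110.1 and 93.9 in FeSO4/DEX mice. Id2 and Id3 are inhibitors of helix-loop-helix transcription factors and targets of BMP signalling. Both genes had their highest NaCl/PBS level in mouse 2, and in both the 2 iron groups stood above all other mice.

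Klf10 had 29.0, 57.8 and 37.0 CPM in NaCl/PBS, 6.34, 15.9 and 12.7 in NaCl/DEX, 128, 214 and 229 in FeSO4/PBS and 73.7, 76.4 and 58.6 in FeSO4/DEX mice. Klf10, a zinc finger factor induced by TGF-β, was the gene with the lowest FeSO4/DEX levels relative to FeSO4/PBS, and the mice of these 2 groups did not overlap. Ier3 had 1.05, 2.21 and 0.773 CPM in NaCl/PBS, 0.108, 0.334 and 0.567 in NaCl/DEX, 12.1, 7.23 and 9.98 in FeSO4/PBS and 3.83, 6.38 and 3.60 in FeSO4/DEX mice. Ier5 had 5.66, 7.61 and 7.56 CPM in NaCl/PBS, 1.73, 2.00 and 1.91 in NaCl/DEX, 11.9, 9.59 and 11.8 in FeSO4/PBS and 9.62, 5.77 and 4.42 in FeSO4/DEX mice. Ier3 is a stress-induced regulator of cell survival and Ier5 an early response gene linked to the heat shock response. Ier3 lay under 1 CPM in NaCl/DEX mice, and its FeSO4/DEX mice lay between the FeSO4/PBS and NaCl/PBS mice without overlap. The FeSO4/DEX mice of Ier5 overlapped the NaCl/PBS mice, since mice 2 and 3 were near the NaCl/PBS level.

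Of the list of genes of NF-κB signalling and cytokine response, 5 belonged to the set. Relb had 3.45, 5.73 and 2.45 CPM in NaCl/PBS, 0.650, 1.34 and 0.979 in NaCl/DEX, 8.91, 7.95 and 6.22 in FeSO4/PBS and 9.08, 6.24 and 6.60 in FeSO4/DEX mice. RelB is a subunit of NF-κB. Bcl3 had 18.6, 51.3 and 23.8 CPM in NaCl/PBS, 13.1, 13.0 and 18.3 in NaCl/DEX, 217, 154 and 148 in FeSO4/PBS and 214, 187 and 186 in FeSO4/DEX mice. Bcl-3 is a nuclear partner of NF-κB. In both genes the 3 NaCl/DEX mice were lowest, and NaCl/PBS mouse 2 was highest of its group. Tnip1 had 9.40, 10.9 and 9.45 CPM in NaCl/PBS, 6.50, 7.35 and 6.70 in NaCl/DEX, 19.3, 26.5 and 15.9 in FeSO4/PBS and 17.1, 22.0 and 17.6 in FeSO4/DEX mice. Tnip1 encodes a binding partner of A20 that restrains NF-κB. Its fall after DEX was the smallest of the 5 genes, and its iron groups overlapped each other. With NaCl/PBS mouse 2 left out of the mean, the DEX log2 ratio of Tnip1 was -0.434 and missed the rule, and that of Bcl3 was -0.504.

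Cxcl2 had 0.0363, 1.32 and 0.0430 CPM in NaCl/PBS, 0, 0 and 0 in NaCl/DEX, 5.29, 9.70 and 7.26 in FeSO4/PBS and 5.64, 9.90 and 5.19 in FeSO4/DEX mice. Cxcl2 is a chemokine that attracts neutrophils. No read of Cxcl2 was counted in NaCl/DEX mice, and 28 of the 30 reads in NaCl/PBS mice came from mouse 2, so that its place in the set rests on that mouse. Selp had 0.799, 1.13 and 0.945 CPM in NaCl/PBS, 0.433, 0.382 and 0.258 in NaCl/DEX, 3.73, 4.67 and 3.37 in FeSO4/PBS and 3.39, 4.07 and 2.42 in FeSO4/DEX mice. P-selectin, the product of Selp, holds leukocytes to activated endothelium and platelets. Both genes stayed under 10 CPM in all mice. The neutrophil sums given above were also higher in both iron groups than in all NaCl mice.

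Socs3 had 9.77, 47.3 and 12.1 CPM in NaCl/PBS, 2.00, 3.72 and 2.53 in NaCl/DEX, 222, 216 and 189.7 in FeSO4/PBS and 193, 223 and 112 in FeSO4/DEX mice. SOCS3 is the feedback inhibitor of cytokine receptors that signal through STAT3, above all those of the IL-6 family. Among the 123 genes Socs3 had the largest smaller ratio, being lowered 8.38-fold by DEX and raised 9.07-fold by iron as a ratio of means. The NaCl/PBS mean of 23.1 ± 21.0 CPM (SD, n = 3) was set mostly by mouse 2. With this mouse left out of the mean, Socs3 was 3.98-fold lower after DEX and 19.1-fold higher after iron, and ranked 6 in the set behind Junb, Id2, Efna1, Arrdc4 and Pde4b. Without mouse 2 in the whole rule, 105 of the 123 genes still met the rule, within 134 genes that did. With mouse 2 left out of the NaCl/PBS mean alone, the DEX log2 ratio missed the threshold of -0.5 in several named genes. Among them were Plin2 (-0.495), Zpr1 (-0.473), Il17ra (-0.438), Tnip1 (-0.434), Xbp1 (-0.414), Tnip2 (-0.366) and Cxcl2 (-0.110).

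For 3 genes of this kind the stretch before the start of the Ensembl canonical transcript is printed. They were chosen because these windows hold a motif of the pathway the gene belongs to. The promoters of Bcl3, Tnip1 and Selp, of the same list as Cxcl2 and Relb, held no κB match. Each sequence is the 250 bases before the start on the gene's strand, 5′ to 3′, read from GRCm39, and capitals mark matches to the κB consensus (Cxcl2, Relb), the CRE TGACGTCA (Relb) and the STAT motif TTCNNNGAA (Socs3), searched on both strands. The windows are chr11:117860124-117860373 on the minus strand for Socs3, chr5:91051480-91051729 on the plus strand for Cxcl2 and chr7:19363424-19363673 on the minus strand for Relb.
Socs3: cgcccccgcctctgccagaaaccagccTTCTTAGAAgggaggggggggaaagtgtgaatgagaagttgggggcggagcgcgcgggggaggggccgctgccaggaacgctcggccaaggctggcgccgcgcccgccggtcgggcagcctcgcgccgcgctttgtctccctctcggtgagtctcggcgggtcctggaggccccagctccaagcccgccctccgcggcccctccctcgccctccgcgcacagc
Cxcl2: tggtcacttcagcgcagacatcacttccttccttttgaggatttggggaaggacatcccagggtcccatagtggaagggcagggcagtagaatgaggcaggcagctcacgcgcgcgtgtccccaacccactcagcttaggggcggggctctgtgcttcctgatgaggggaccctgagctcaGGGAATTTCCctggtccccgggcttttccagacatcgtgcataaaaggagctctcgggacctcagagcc
Relb: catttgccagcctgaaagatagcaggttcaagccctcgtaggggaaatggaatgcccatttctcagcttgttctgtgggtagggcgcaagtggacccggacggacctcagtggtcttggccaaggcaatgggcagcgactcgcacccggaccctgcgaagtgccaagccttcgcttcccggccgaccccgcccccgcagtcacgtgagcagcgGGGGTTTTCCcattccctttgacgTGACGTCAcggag
The match in Socs3 began 223 bases before the start. The κB match lay 69 bases before the start in Cxcl2 and 37 in Relb, where the CRE followed at 13. Other motifs searched were left unmarked. In Relb these were AGAACA, the hexamer of the GR element, at 182, the E-box CACGTG at 50 and the GC-box GGGCGG at 63, on either strand. Socs3 and Cxcl2 held GC-box matches but no AGAACA. A match is a description of letters and says nothing of binding.

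Over the whole set, shares of promoters with a motif lay on both sides of those of all genes. In windows from 250 bases before to 50 bases after the start, a κB match was present in 8.94% of the set and 6.69% of 13818 promoters of tested genes, an AP-1 match (TGANTCA) in 8.13% and 5.65%, and a STAT match in 8.13% and 7.59%. A match to any of the 3 was present in 30 of the 123 promoters (24.4%), against 18.6%. The CRE was found in 1.63% and 2.93%. The hexamer of the GR element, AGAACA, was present in 6.50% of the set, against 13.7% of all promoters and 11.9% of those of genes lowered by DEX but not raised by iron. The E-box CACGTG was present in 13.8% and 9.68%, and the GC-box GGGCGG in 62.6% and 54.2%. For the C/EBP motif TTGCNNAA the shares were 7.32% and 9.74%, for the RBPJ motif GTGGGAA 7.32% and 6.18%, for the TATA motif TATAAA 5.69% and 9.11%, for the CArG box 1.63% and 1.37%, and for the ATF4 motif TGATGCAA 0% and 0.579%. Promoters of the set were richer in G and C, with a median of 61.3% against 57.3%, and matches to a short motif move with base composition. No share was tested.

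The strongest responders outside these lists differed in kind. Efna1 had 33.9, 37.7 and 19.3 CPM in NaCl/PBS, 2.87, 3.20 and 1.96 in NaCl/DEX, 93.5, 149 and 125 in FeSO4/PBS and 174, 305 and 138 in FeSO4/DEX mice. Ephrin-A1 is a ligand of Eph receptors at the cell surface. With 0.5 CPM added, its ratio after DEX was the lowest of the 123 genes, while by edgeR's LFC Cxcl2 and Hcar2, with 3 reads or fewer in each NaCl/DEX library, stood lower. Its FeSO4/DEX mean was above its FeSO4/PBS mean, with the groups overlapping. Pde4b had 17.9, 14.7 and 24.1 CPM in NaCl/PBS, 5.15, 3.58 and 4.07 in NaCl/DEX, 67.6, 127 and 67.0 in FeSO4/PBS and 119, 127 and 111 in FeSO4/DEX mice. Pde4b encodes a phosphodiesterase that breaks down cyclic AMP. Gadd45a had 6.39, 9.49 and 3.09 CPM in NaCl/PBS, 2.11, 1.67 and 2.37 in NaCl/DEX, 81.3, 115 and 93.6 in FeSO4/PBS and 147, 141 and 109 in FeSO4/DEX mice. Gadd45a is a gene of growth arrest and the response to DNA damage. Its iron groups lay at 81.3 CPM or above and all NaCl mice below 10.

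Arrdc4 had 17.6, 21.9 and 25.8 CPM in NaCl/PBS, 4.28, 5.10 and 5.05 in NaCl/DEX, 185, 145 and 130.0 in FeSO4/PBS and 106, 119 and 75.3 in FeSO4/DEX mice. Arrdc4, an arrestin-like protein whose gene responds to glucose through the MondoA and ChREBP factors, was 4.52-fold lower after DEX and 7.05-fold higher after iron as a ratio of means. Its FeSO4/DEX mice lay below all FeSO4/PBS mice and above all NaCl mice. Tifa had 14.9, 29.4 and 13.2 CPM in NaCl/PBS, 6.88, 8.40 and 5.98 in NaCl/DEX, 258, 133 and 73.7 in FeSO4/PBS and 76.3, 159 and 51.5 in FeSO4/DEX mice. Tifa is an adaptor of TRAF signalling. It varied widely within the iron groups, with a FeSO4/PBS SD of 94.1 CPM around a mean of 155. Arid5a had 2.61, 6.06 and 2.88 CPM in NaCl/PBS, 1.25, 1.43 and 2.01 in NaCl/DEX, 144, 137 and 121 in FeSO4/PBS and 122, 130.4 and 99.6 in FeSO4/DEX mice. Arid5a, a protein that stabilises IL-6 mRNA, had the largest rise after iron of the 123 genes and is named here because of that value. Its iron levels were all at 99.6 CPM or above and its NaCl levels all at 6.06 or below.

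Of the remaining genes with large ratios, Cda, Ralgds, Zc3h12d, Rnd1 and Ung had DEX log2 ratios of -1.74, -1.71, -1.63, -2.04 and -1.40. Their iron log2 ratios were 2.52, 1.66, 1.85, 1.49 and 1.89. Cda salvages cytidine, Ralgds activates Ral GTPases, Zc3h12d is a relative of the ribonuclease Regnase-1, Rnd1 is a GTPase that acts on cell shape and Ung removes uracil from DNA. Rnd1 had 10.2, 17.1 and 11.3 CPM in NaCl/PBS, 3.41, 3.15 and 1.70 in NaCl/DEX, 27.2, 57.4 and 26.1 in FeSO4/PBS and 18.7, 42.6 and 23.8 in FeSO4/DEX mice. Its NaCl/DEX mice lay below 4 CPM and its iron groups overlapped each other.

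**Figure D2:**
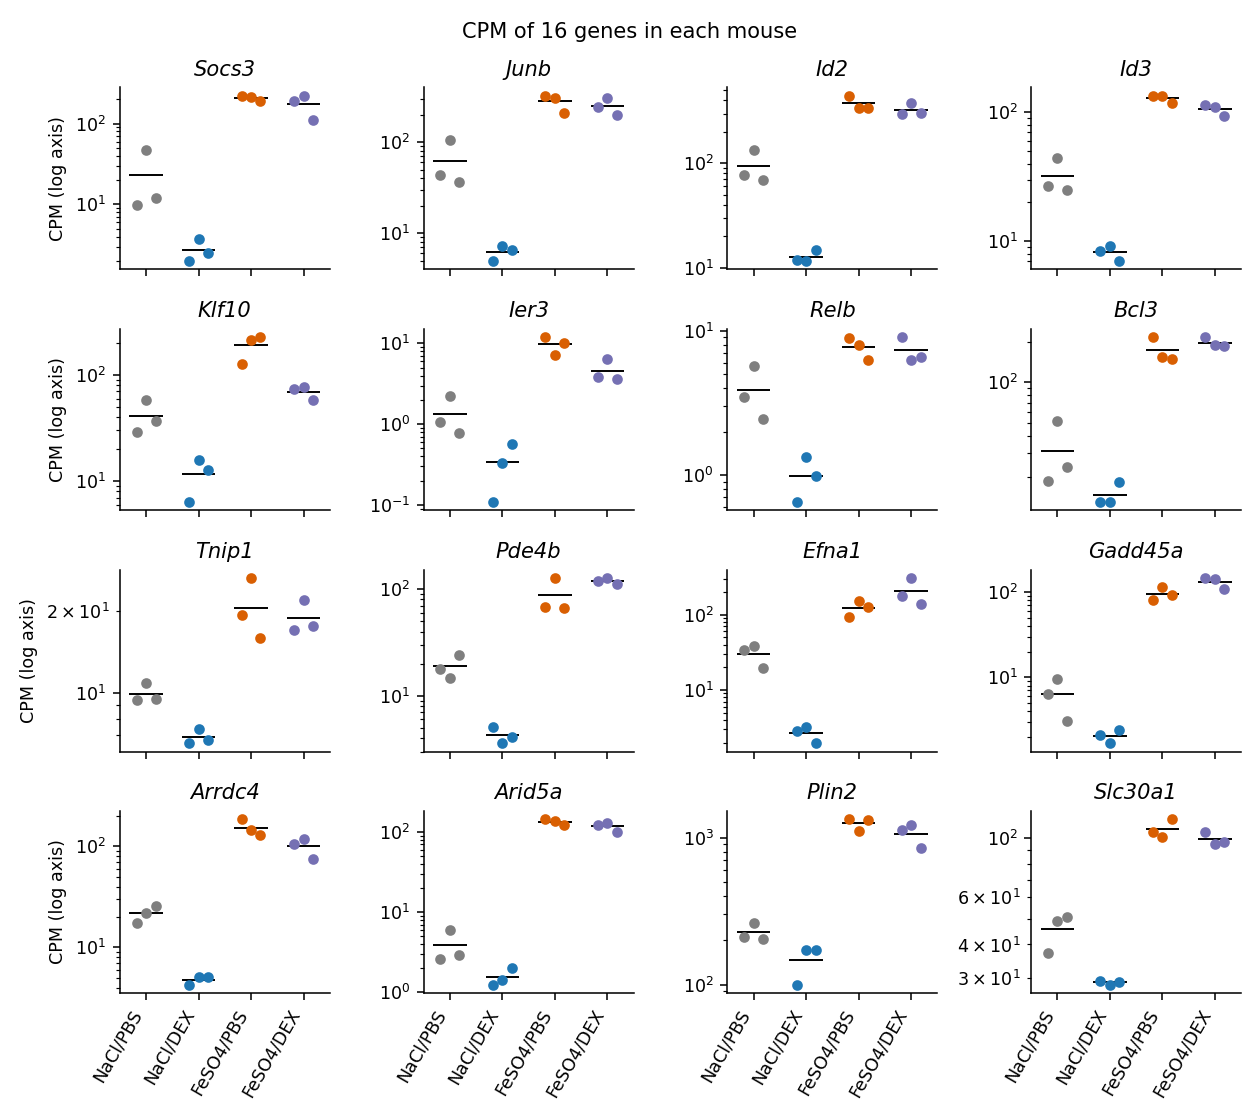
CPM of 16 genes in each mouse, on log axes, with points for mice 1 to 3 from left to right in each of the 4 groups and a line at the group mean. NaCl/DEX mice are lowest in all 16 panels, FeSO4/DEX mice lie at the height of FeSO4/PBS mice in most, and Klf10, Ier3, Id3 and Arrdc4 are the panels in which all of them lie between FeSO4/PBS and NaCl/PBS.

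The lists of growth factor and TGF-β signalling gave 5 genes. Dusp10, a phosphatase of the MAP kinases JNK and p38, had means of 3.12, 1.23, 10.5 and 8.80 CPM in NaCl/PBS, NaCl/DEX, FeSO4/PBS and FeSO4/DEX mice. Hbegf, a ligand of the EGF receptor, had 1.38, 0.589, 6.97 and 7.15 CPM in the same order. Both were lowest in NaCl/DEX. Ccn1 had 5.12, 4.79 and 6.02 CPM in NaCl/PBS, 2.49, 3.53 and 3.71 in NaCl/DEX, 9.82, 23.2 and 17.2 in FeSO4/PBS and 43.7, 10.9 and 22.2 in FeSO4/DEX mice. Ccn1, a matrix protein induced through YAP and serum response factor, spread widest among FeSO4/DEX mice. Fst, which encodes the activin antagonist follistatin, had means of 1.36, 0.434, 5.10 and 5.04 CPM, with 9, 16 and 1 reads in NaCl/DEX mice. Tgif1, a repressor of SMAD-driven transcription, had 11.3, 7.28, 38.8 and 36.7 CPM.

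Abundant genes of metabolism and cell structure changed less after DEX than after iron. Plin2 had 212, 262 and 206 CPM in NaCl/PBS, 99.9, 172 and 171 in NaCl/DEX, 1333, 1117 and 1328 in FeSO4/PBS and 1126, 1226 and 848 in FeSO4/DEX mice. Perilipin-2 coats lipid droplets, and Plin2 was the most abundant gene of the set, 1.53-fold lower after DEX and 5.56-fold higher after iron as a ratio of means. Slc30a1 had 37.1, 49.1 and 50.7 CPM in NaCl/PBS, 29.3, 28.3 and 29.1 in NaCl/DEX, 106, 101 and 118 in FeSO4/PBS and 105, 95.1 and 96.3 in FeSO4/DEX mice. Slc30a1 exports zinc from the cell. Its NaCl/DEX mice differed by less than 1.1 CPM. Zpr1 had 45.2, 55.9 and 54.1 CPM in NaCl/PBS, 33.3, 38.6 and 35.0 in NaCl/DEX, 768, 390.3 and 359 in FeSO4/PBS and 288, 458 and 292 in FeSO4/DEX mice. Zpr1, a zinc finger protein, was highest in FeSO4/PBS mouse 1, and its iron groups overlapped.

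Bhlhe40 had 123, 161 and 149 CPM in NaCl/PBS, 57.5, 56.4 and 86.0 in NaCl/DEX, 266, 418 and 348 in FeSO4/PBS and 442, 506 and 380.2 in FeSO4/DEX mice. Zfp36l1 had 122, 186 and 133 CPM in NaCl/PBS, 84.4, 73.3 and 88.3 in NaCl/DEX, 292, 345 and 331 in FeSO4/PBS and 311, 409 and 247 in FeSO4/DEX mice. Bhlhe40 is a repressor tied to the circadian clock and Zfp36l1 a protein that marks AU-rich mRNAs for decay. Both were lowest in NaCl/DEX and overlapped between the 2 iron groups. Xbp1 had 206, 272 and 179.6 CPM in NaCl/PBS, 148, 155 and 130.5 in NaCl/DEX, 539.5, 274 and 373 in FeSO4/PBS and 329.5, 269 and 257 in FeSO4/DEX mice. Xbp1, the transcription factor of the unfolded protein response, was held up by FeSO4/PBS mouse 1, and its FeSO4/DEX mice overlapped the NaCl/PBS mice. Rhou, a GTPase of cell shape, had means of 63.9, 41.4, 243 and 249 CPM in NaCl/PBS, NaCl/DEX, FeSO4/PBS and FeSO4/DEX mice. Rnf125 had 46.7, 29.8 and 40.5 CPM in NaCl/PBS, 21.7, 21.2 and 19.5 in NaCl/DEX, 74.5, 251 and 244 in FeSO4/PBS and 239.9, 247 and 213 in FeSO4/DEX mice. Rnf125, a ubiquitin ligase that limits antiviral sensing, was far lower in FeSO4/PBS mouse 1 than in mice 2 and 3.

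In mice that received both, levels stayed near those of FeSO4/PBS mice. FeSO4/DEX mice all lay above all NaCl/PBS mice in 109 of the 123 genes, against 31.1% of all genes tested. In 0 of the 123 genes did they all lie below, against 32.4% of all genes tested. The rule had placed the NaCl/PBS mice below the FeSO4/PBS mice in each of the 123 genes. This leans the count above upward and the count below downward, and all genes were not chosen in this way. Among the 14 exceptions were Cdr2l, Cep170, Csf2rb, Csf2rb2, F3, Gm7694, Ier5, Lrrc32, Metrnl, Pnrc1, Rnf225, Trim6 and Xbp1. The log2 ratio of the FeSO4/DEX mean to the NaCl/PBS mean had a median of 1.17, beside 1.24 for FeSO4/PBS. By mouse, the median over the set relative to the NaCl/PBS mean was 1.14, 1.30 and 1.04 in FeSO4/DEX mice 1 to 3. It was 1.06, 1.36 and 1.34 in FeSO4/PBS, -0.87, -0.83 and -0.89 in NaCl/DEX, and -0.10, 0.09 and -0.02 in NaCl/PBS mice. FeSO4/DEX mouse 3 was the lowest of its group in 74 genes.

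**Figure D3:**
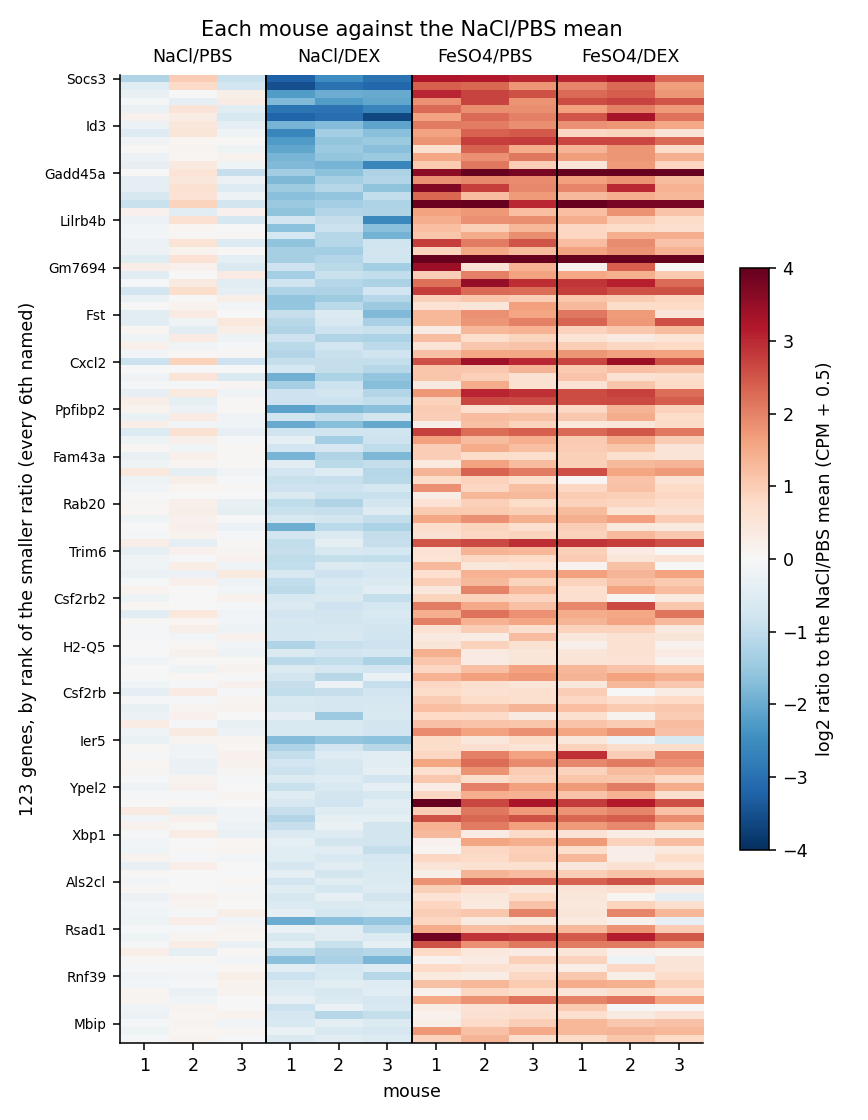
Rows are the 123 genes, ordered by the smaller of their 2 ratios, and columns the 12 mice. Colour gives the log2 ratio of a mouse's CPM to the NaCl/PBS mean, both with 0.5 CPM added, with values beyond 4 in size drawn at 4. NaCl/DEX columns are blue and both iron groups red, with gene medians of 1.04 to 1.30 in FeSO4/DEX and 1.06 to 1.36 in FeSO4/PBS mice.

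The effect of DEX in iron-treated mice was tested by FeSO4/DEX against FeSO4/PBS with edgeR's quasi-likelihood model over 13857 genes, at a false discovery rate (FDR, Benjamini-Hochberg adjusted p) of 0.05. None of the 123 genes was called lower and none higher, and over all genes the share called was 0% in both directions (0 of 13857). The smallest edgeR FDR in the set was 0.407, for Klf10. At an unadjusted p under 0.05, 9 genes of the set (7.32%) were lower and 3 (2.44%) higher, against 456 (3.29%) and 444 (3.20%) of all genes. The shares were 5.66% and 1.71% among genes raised by iron and not lowered by DEX. DESeq2's Wald test called 1 gene of the set, Klf10, as lower, and 5 genes lower and 5 higher among all 13857. The log2 fold change (LFC) of the set had a median of -0.10 with a median standard error of 0.22, and 83 of 123 were below 0, while the median of all genes was 0.00. Because FeSO4/PBS mice were selected to be high, this comparison leans downward for the set. Genes raised by iron and not lowered by DEX, chosen high in the same mice, had a median LFC of -0.08 over 2632 genes. Genes lowered by DEX and not raised by iron had a median of 0.03 over 1238 genes. These had been chosen without genes high in FeSO4/PBS mice, which leans this value upward, and their LFC in NaCl mice, -0.90, was also selected on.

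For single genes the values in the 2 settings stood as follows. Klf10 had an LFC of -1.83 (SE 0.32) after DEX in NaCl mice, by which it was chosen, and -1.44 (SE 0.30, edgeR unadjusted p = 0.000294, FDR 0.407) in FeSO4 mice. Ier3 had -1.96 and -1.09, Ier5 -1.89 and -0.73, and Arrdc4 -2.18 and -0.61. These 4 genes had unadjusted p-values of 0.01 or less in edgeR without an FDR under 0.4. The values of Socs3 were -3.06 and -0.24 (SE 0.43), those of Junb -3.31 and -0.17 (SE 0.32), and those of Id2 -2.88 and -0.20 (SE 0.21). The highest value in FeSO4 mice was 0.76 (SE 0.29, edgeR FDR 0.732) for Efna1, which had -3.51 in NaCl mice.

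Groups without overlap were about as frequent in the set as in all genes. All FeSO4/PBS mice lay above all FeSO4/DEX mice in 8 genes (6.50%, against 5.02% of all genes tested), namely Arrdc4, Csf2rb2, Hes1, Id3, Ier3, Klf10, Map3k14 and Ung. The reverse was seen for 3 genes (2.44%, against 4.07%), Mbip, Nlrc5 and Rhod. With 3 mice in each group, an exact permutation test of a single gene cannot give a two-sided p below 0.1.

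**Figure D4:**
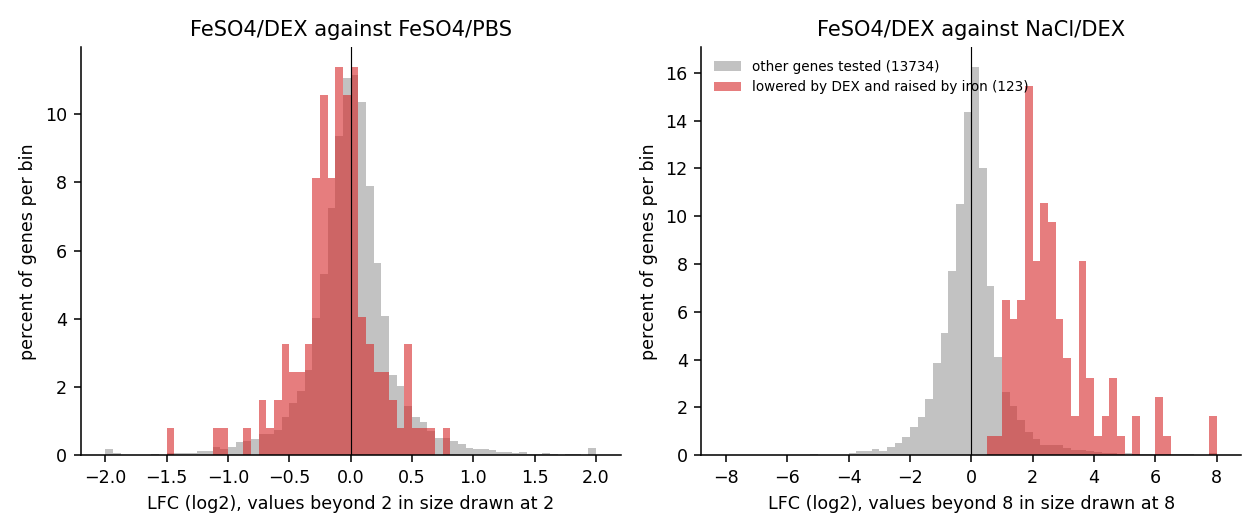
Histograms of the LFC, as percent of genes in each bin, for the 123 genes in red and all other genes tested in grey. In FeSO4/DEX against FeSO4/PBS both lie around 0, with medians of -0.10 for the set and 0.00 for all genes. In FeSO4/DEX against NaCl/DEX the set lies to the right of 0 with a median of 2.46.

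The effect of iron in DEX-treated mice was tested by FeSO4/DEX against NaCl/DEX. By edgeR's test all 123 genes were called higher and none lower, while 22.4% of all genes were called higher and 20.9% lower. NaCl/DEX mice had been selected to be low, which leans this comparison upward. Among genes raised by iron and not lowered by DEX, from which genes low in NaCl/DEX mice had been removed so that their values lean the other way, 71.8% of 2632 were called higher, with a median LFC of 0.74. Among those lowered by DEX and not raised by iron 19.4% were higher and 28.9% lower. The LFC of the set ran from 0.70 for Cep170 (edgeR FDR 0.0154) upward with a median of 2.46, and in 121 genes it was above 1. All FeSO4/DEX mice lay above all NaCl/DEX mice in 122 genes, against 27.9% of all genes, with Cep170 as the exception.

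Large LFCs in this comparison were those of Efna1 (6.28, SE 0.38), Arid5a (6.24, SE 0.30), Gadd45a (6.03, SE 0.34), Socs3 (6.01, SE 0.57) and Junb (5.31, SE 0.39), with edgeR FDRs between 1.77e-08 and 2.18e-06. The rule had selected their NaCl/DEX values to be low, which leans these LFCs upward and the FDRs downward. For Cxcl2 and for Hcar2, a receptor for hydroxybutyrate and niacin, no NaCl/DEX library held more than 3 reads. Against a floor of 3 reads per library, the FeSO4/DEX mean of Cxcl2 was at least 45.0-fold higher and that of Hcar2 at least 136.9-fold higher, which covers counting error only. Weaker values were those of Tnip1 (1.48, SE 0.18), Slc30a1 (1.80, SE 0.12), Ier5 (1.83, SE 0.26) and Xbp1 (1.00, SE 0.22). When mice were left out in turn, 3 genes lost their call. Cep170 had an LFC of 0.46 without FeSO4/DEX mouse 1 (edgeR FDR 0.0968), 0.66 without NaCl/DEX mouse 1 and 0.61 without NaCl/DEX mouse 3. Gm7694 had 1.26 without FeSO4/DEX mouse 2 (edgeR FDR 0.1545) and 2.38 without NaCl/DEX mouse 3, and Metrnl 0.69 without FeSO4/DEX mouse 1 (edgeR FDR 0.0545).

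The set was also read against lists of pathway genes. Of 32 tested genes of NF-κB and cytokine response, edgeR called 17 lower and 2 higher (Nfkbia and Vcam1) after DEX in NaCl mice, against 7.15% and 6.5% of all genes. After iron, 14 were higher and 4 lower, against 27.2% and 27.3%. The rule was met by 5 of the 32 (15.6%), against 0.888% of all genes tested (123 of 13857), and 14 of the 17 genes called lower after DEX did not. In FeSO4/DEX against NaCl/DEX, 22 were higher and 2 lower, against 22.4% and 20.9% of all genes. The lists were drawn up with results of these data known, and the counts hold the genes of the set itself.

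Early response factors gave another picture. All 28 tested genes of that list were higher after iron, against 27.2% of all genes. All 28 were also higher in FeSO4/DEX than in NaCl/DEX, against 22.4%. After DEX 7 were lower and 5 higher, against 7.15% and 6.5% of all genes. The 5 higher ones were Jun, Zfp36, Klf2, Myc and Maff. The 6 genes of the set (21.4% of the list) were Junb, Id2, Id3, Klf10, Ier3 and Ier5. These 6 were among the 7 lower ones, but the rule had selected them as low after DEX and high after iron. Their calls after DEX and after iron were therefore largely fixed by that choice. The seventh was Egr1, which went from 41.9 CPM in NaCl/PBS to 14.7 in NaCl/DEX mice and 96.8 in FeSO4/PBS mice.

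Members of other stress pathways were counted in the same way. None of 28 NRF2 target genes, 25 genes of the ATF4 response, 21 p53 target genes and 26 genes of insulin and growth hormone signalling met the rule, a count that lists of this size cannot set apart from the background of 0.888%. After iron 21, 9, 11 and 10 of them were higher, against 27.2% of all genes tested. After DEX 1, 0, 2 and 2 were lower, against 7.15%. Among 26 genes of TGF-β, BMP and activin signalling 8 were lower after DEX and 9 higher after iron, and 3 met the rule, none of them among the 8 called lower. Of 25 genes of MAPK feedback 3 were lower after DEX and 16 higher after iron, with 2 in the set. The same shares of all genes apply to these 2 lists, and no count of a list was tested against them. In FeSO4/DEX against FeSO4/PBS none of the genes of the 14 lists was called by edgeR.

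**Figure D5:**
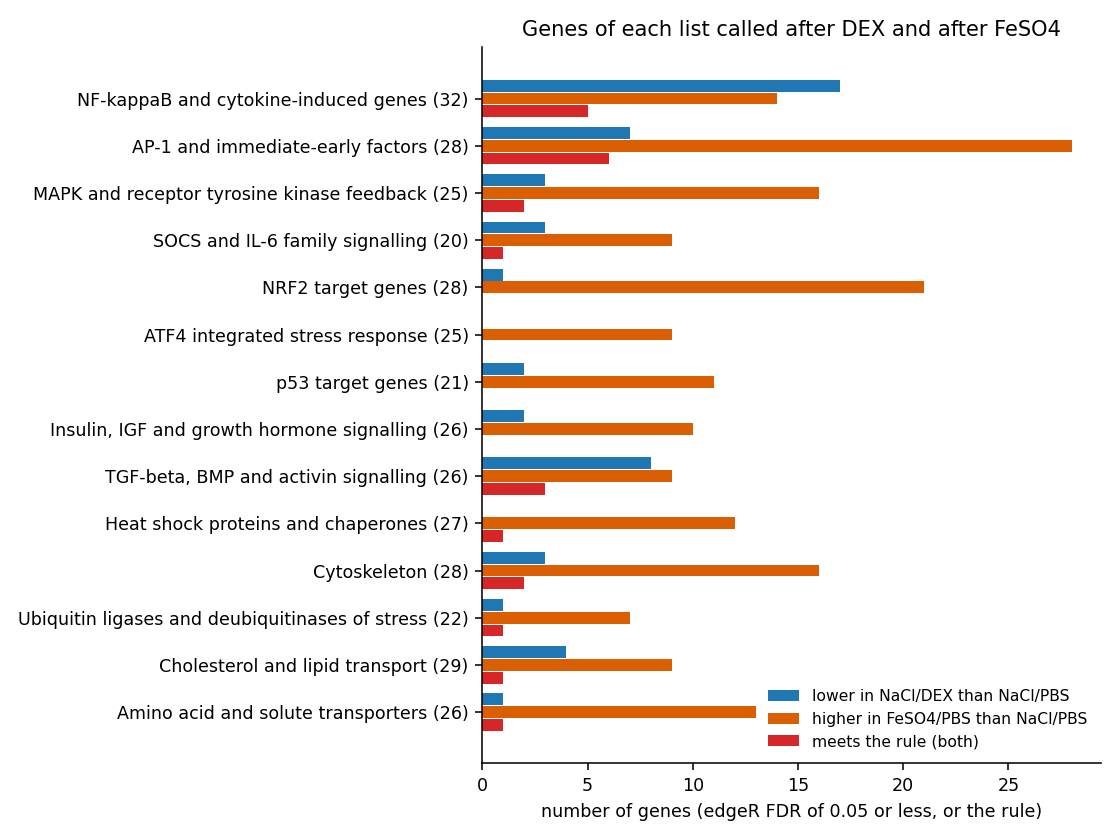
Bars give, for each of 14 gene lists with the number of tested genes in brackets, how many genes edgeR called lower after DEX in NaCl mice, how many it called higher after FeSO4, and how many meet the rule. The NF-κB list has 17, 14 and 5 genes, the early response list 7, 28 and 6, and the NRF2, ATF4, p53 and insulin lists hold no gene that meets it. Of all genes tested, 7.15% were lower after DEX and 27.2% higher after FeSO4, and genes that meet the rule were selected on both comparisons.

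Some of the values carry limits of counting. Exons of 15 of the 123 genes overlap another gene on the same strand and those of 77 overlap one on the opposite strand, among them Junb (with Prdx2), Tnip1 (with Gpx3) and Gm7694 (with Nos1ap, same strand). The libraries were stranded, but which strand column was deposited is not given in the sources used here. Reads of the near-identical pairs Csf2rb and Csf2rb2, and H2-Q4 and H2-Q5, may be split between the copies, so these genes are uncertain. With library size in place of TMM factors, the median of all genes shifted by -0.16 after DEX and -0.31 after iron. All 123 genes then still lay below 0 after DEX and above 0 after iron, with medians of -0.97 and 0.94, but 81 of them met the rule.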

How the data were processed

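Livers of 12 mice were measured by RNAseq. The authors made stranded libraries, mapped the single-end reads to mm39 by STAR 2.7.10b after a FastQC check, and deposited raw counts per gene for 55414 Ensembl genes, in which 30401 genes had no count. Groups were taken from the labels, which do not say whether the mice shared a cage or a day. The 123 genes and all gene lists were chosen with earlier results of these data known.

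CPM values were computed from the deposited counts with edgeR 4.0.16 (R 4.3.3) and TMM factors between 0.871 and 1.16. For tests, 13857 genes passed edgeR's filter, 1 mean per group was fitted to all 12 libraries with the quasi-likelihood method, and p-values were adjusted by Benjamini-Hochberg. All 123 genes passed the filter. LFCs are edgeR values, and ratios are log2 ratios of group means with 0.5 CPM added. DESeq2 1.42.0 served as an alternative. The fit was first tested on simulated counts. Both the 3 mice in a group and, for genes with few reads, the depth limit the precision.

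Genes named are those in a role list, the 15 with the largest smaller ratio, those at the thresholds and the 5 most abundant. Arid5a, Hcar2, Egr1, genes listed as exceptions or behind a small count, and those of the other observations were named after their values were seen. Symbols, positions and promoters came from GENCODE vM39 on GRCm39, the build of mm39, with a symbol for 54742 genes. Promoters of genes on chromosome 18 were not printed. Figures were drawn with matplotlib 3.10.9. One gene among the exceptions is not reported here. IPA, HOMER, qPCR and survival data were not analysed here.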

Additional observations from a re-analysis of the deposited data

Results flagged for a closer look

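In 3 of the 123 genes (2.44%) the 2 responses to DEX ran in opposite directions in all mice. The share of all genes tested in which all FeSO4/DEX mice lay above all FeSO4/PBS mice was 4.07%, so that the count is not above the background. DEX lowered them in NaCl mice, where all NaCl/DEX mice lay below all NaCl/PBS mice as the rule required, while in iron-treated mice all FeSO4/DEX mice lay above all FeSO4/PBS mice. Mbip had 3.12, 3.52 and 2.96 CPM in NaCl/PBS, 1.95, 2.34 and 2.01 in NaCl/DEX, 3.88, 5.80 and 6.87 in FeSO4/PBS and 8.88, 7.39 and 7.90 in FeSO4/DEX mice. The LFC of Mbip, a MAP kinase inhibitory protein of the ATAC histone acetylase complex, was 0.565 (SE 0.20, edgeR FDR 0.714) in FeSO4 mice. Rhod had 13.5, 14.9 and 15.1 CPM in NaCl/PBS, 6.18, 7.59 and 8.04 in NaCl/DEX, 32.9, 43.1 and 43.5 in FeSO4/PBS and 50.5, 46.7 and 44.9 in FeSO4/DEX mice. Rhod, a GTPase of endosomes, had 0.261 (SE 0.12, edgeR FDR 0.762). Nlrc5 had 0.340 (SE 0.13, edgeR FDR 0.733). None of the 3 passed edgeR's FDR of 0.05 in FeSO4 mice, the difference between the 2 responses was not tested, and the response in NaCl mice was selected on.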

How the results depend on the processing

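The rule was met by 121 genes with library size in place of TMM factors (81 shared with the 123), 127 with DESeq2's size factors (119 shared), 103 with a pseudocount of 1, 108 with a minimum of 5 CPM and 123 with no minimum. It was met by 30 genes when both ratios had to be at least 1 and by 192 when groups could overlap. Without 1 mouse of the 3 groups it was met by 124 to 149 genes, of which 105 to 119 were among the 123, fewest without NaCl/PBS mouse 2.

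In FeSO4/DEX against FeSO4/PBS the count of 0 held under all alternatives but 2. DESeq2's Wald test called 1 gene of the set lower, Klf10 (adjusted p = 0.00868), and 5 lower and 5 higher among all 13857 genes. With no filter on low counts edgeR called 6 lower (Klf10, Gm7694, Tifa, Arrdc4, Ier3 and Zpr1) and 2 higher (Efna1 and Ccn1). In that fit of 25013 genes 99 genes were called higher and 71 lower in all, and the cause was not tested. Leaving out 1 mouse gave 0 calls in the set in both directions. Among all genes it gave 1 call, higher, in the fit without FeSO4/DEX mouse 1. The median LFC ran from -0.18 to -0.04 over all alternatives.

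In FeSO4/DEX against NaCl/DEX between 121 and 123 genes were called higher under all alternatives but the filter of at least 10 counts in every library, which tested 103 of the genes and called all 103, with a median LFC of 2.22. The median was 2.27 with library size alone, and 2.27 to 2.46 with 1 mouse left out. Among all genes, library size alone gave 2151 higher and 4146 lower, in place of 3103 and 2902. All FeSO4/DEX mice lay above all NaCl/PBS mice in 87 genes with library size alone and in 110 to 114 without 1 mouse. The share of all genes was not counted in these settings, and the 31.1% given above holds for TMM factors with all mice. With library size alone the median log2 ratio of FeSO4/DEX to NaCl/PBS over all genes was -0.32. Groups with a mouse left out separate more easily. These alternatives, and the folds of Socs3 and ratios of other genes without NaCl/PBS mouse 2, were chosen after seeing the data.

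Mouse numbers were shared by the groups, but deviations of mice with the same number correlated at -0.106 to 0.154, so the numbers were not taken as pairs. With the replicate number as a block, the counts of calls stayed at 0 and 123, and the medians were -0.09 and 2.45.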

Other observations

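Receptors and relays that lead to NF-κB and MAP kinases were present in the set beyond the lists, and were picked out after their values had been seen. Tnfrsf1a had 89.3, 92.1 and 80.5 CPM in NaCl/PBS, 55.4, 52.4 and 52.98 in NaCl/DEX, 357, 231 and 261 in FeSO4/PBS and 223, 269.9 and 214 in FeSO4/DEX mice. Tnfrsf1a encodes the main receptor of TNF, and its FeSO4/DEX mice overlapped the FeSO4/PBS mice. Il17ra had 17.7, 25.6 and 16.9 CPM in NaCl/PBS, 13.1, 13.1 and 11.7 in NaCl/DEX, 75.8, 62.7 and 72.4 in FeSO4/PBS and 61.2, 70.3 and 46.1 in FeSO4/DEX mice. Il17ra encodes a chain of the IL-17 receptor, and both of its iron groups stood above all NaCl mice. Irak2, a kinase of IL-1 and Toll-like receptor signalling, had means of 14.05, 7.99, 29.5 and 27.4 CPM in NaCl/PBS, NaCl/DEX, FeSO4/PBS and FeSO4/DEX mice. Map3k8, the kinase TPL2, had 4.18, 2.02, 29.3 and 26.7 CPM, and Tnip2, a partner of A20 and TPL2, had 7.78, 5.23, 37.3 and 32.4 CPM. Map3k14 had 3.52, 5.21 and 3.48 CPM in NaCl/PBS, 2.06, 1.48 and 1.39 in NaCl/DEX, 10.4, 6.98 and 7.91 in FeSO4/PBS and 6.13, 5.36 and 6.25 in FeSO4/DEX mice. Map3k14 encodes NIK, the kinase of the non-canonical NF-κB pathway that acts through RelB, and its FeSO4/DEX mice lay below all FeSO4/PBS mice (LFC -0.50, SE 0.22, edgeR unadjusted p = 0.0397, FDR 0.762).

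Genes of MHC class I and of Notch signalling were also found, again named after their values had been seen. Nlrc5 had 28.8, 33.8 and 29.1 CPM in NaCl/PBS, 18.3, 20.2 and 15.5 in NaCl/DEX, 46.8, 54.9 and 57.1 in FeSO4/PBS and 58.0, 75.8 and 65.7 in FeSO4/DEX mice. NLRC5 is the transactivator of MHC class I genes. H2-Q4, a class I gene, had means of 48.6, 32.7, 80.0 and 68.2 CPM in NaCl/PBS, NaCl/DEX, FeSO4/PBS and FeSO4/DEX mice, and H2-Q5 had 4.01, 1.81, 6.72 and 5.19 CPM, although reads of both may be shared. Hes1 had 6.86, 7.94 and 7.60 CPM in NaCl/PBS, 2.06, 3.91 and 2.01 in NaCl/DEX, 17.8, 14.9 and 19.6 in FeSO4/PBS and 13.8, 12.8 and 12.1 in FeSO4/DEX mice. Hes1 is a target of Notch, and its FeSO4/DEX mice lay between the FeSO4/PBS and NaCl/PBS mice without overlap. Jag1, a ligand of Notch, had 3.39, 1.90, 6.11 and 6.08 CPM, and its iron groups overlapped. Other genes of Notch signalling lay outside the set. Dll4 had log2 ratios of -1.12 after DEX and -1.56 after iron, Nrarp -0.35 and -0.65, and Notch1 0.32 and 0.17.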
